A study of Rattus norvegicus with 288 samples.

Results

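The cytochrome P450 enzymes of families 1 to 4 are the haem proteins that oxidise drugs, other foreign chemicals, steroids and fatty acids. Members were taken as all genes whose symbol in the array annotation began with Cyp1, Cyp2, Cyp3 or Cyp4 followed by a letter. There were 42 such genes with a probe set (a group of array probes read as 1 value) of their own, among 14218 named genes. Family 1 had 3 of them, family 2 had 25, family 3 had 4 and family 4 had 10. A gene was kept in a tissue when its log2 level exceeded 6 on at least 4 arrays, and its brightest probe set in that tissue stood for it. This left 37 P450 genes of 11619 genes in the liver, 26 of 12310 in the kidney and 20 of 11317 in the heart. In all, 39 passed in at least 1 tissue, and Cyp2a3, Cyp2b12 and Cyp2b21 passed in none. A further 4 probe sets carried 2 P450 symbols each and were not used, so Cyp2b1, Cyp2b2, Cyp2d1, Cyp2d5 and Cyp4a2 have no value here.

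The values came from male Sprague-Dawley rats of 8 weeks, 96 animals in all, fitted with a femoral vein cannula. Each rat received a 30 min intravenous infusion of oxaliplatin, a platinum drug, at 15 mg/kg, or of D5W, dextrose in water. An oral dose of sunitinib at 5 mg/kg or of its vehicle water, or of sorafenib at 25 mg/kg or of its vehicle F68, followed. F68 here stands for a blend of glycols with the surfactant Pluronic F68, and both oral drugs are inhibitors of receptor tyrosine kinases. Rats were killed 1, 6 or 24 h after dosing was complete, and left kidney, apex of the heart and liver (left lateral and median lobes) were taken. This gave 72 groups of 4 arrays, 1 array per rat and tissue, so 24 groups in each of the 3 tissues. Rats given water or sunitinib were dosed on one day and rats given F68 or sorafenib 2 days later. A difference between F68 and water therefore cannot be told apart from a difference between dosing days. The oxaliplatin comparison set 8 rats against 8, taking F68 and water rats within their own day, and each oral drug was set against its own vehicle after the same infusion. All rats were male and each was dosed on 1 day, so neither females nor repeated dosing were covered.

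The P450 families are switched on by different receptors. Cyp1a1, Cyp1a2 and Cyp1b1 are targets of the aryl hydrocarbon receptor (AhR), a sensor of planar aromatic chemicals. Many Cyp2b, Cyp2c and Cyp3a genes respond to the receptors CAR (Nr1i3) and PXR (Nr1i2), and Cyp4a genes, which encode fatty acid omega-hydroxylases, respond to PPAR alpha. In the adult male rat liver the pattern of growth hormone release sustains male-specific forms such as Cyp2c11, Cyp2c13 and Cyp3a2. Transcript levels, and not enzyme activity, were measured here.

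Promoter sequence of 3 genes is shown because the genes after them carried the liver and kidney results below: Cyp1a2 and Cyp4b1 in the liver, and Cyp4a8 in the kidney. Each is the 250 bases before the gene's start on its own strand in RefSeq, build GRCr8, and lay on the minus strand at chr8:66978150-66978399, chr5:134393117-134393366 and chr5:133970227-133970476 respectively. RefSeq held such a stretch for 35 of the 42 genes and not for Cyp1a1. Capitals mark AGGTCA, the core letters recognised by several nuclear receptors, read on either strand, and TATAAA, the TATA box letters.
Cyp1a2: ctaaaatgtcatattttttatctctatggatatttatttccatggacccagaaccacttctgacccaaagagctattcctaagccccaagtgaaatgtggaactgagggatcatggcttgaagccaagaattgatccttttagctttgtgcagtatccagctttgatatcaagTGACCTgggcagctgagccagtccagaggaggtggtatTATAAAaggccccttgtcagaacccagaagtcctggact
Cyp4b1: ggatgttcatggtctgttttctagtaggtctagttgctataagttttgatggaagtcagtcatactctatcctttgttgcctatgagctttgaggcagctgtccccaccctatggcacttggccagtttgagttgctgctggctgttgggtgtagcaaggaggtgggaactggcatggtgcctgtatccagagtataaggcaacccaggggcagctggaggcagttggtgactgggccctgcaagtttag
Cyp4a8: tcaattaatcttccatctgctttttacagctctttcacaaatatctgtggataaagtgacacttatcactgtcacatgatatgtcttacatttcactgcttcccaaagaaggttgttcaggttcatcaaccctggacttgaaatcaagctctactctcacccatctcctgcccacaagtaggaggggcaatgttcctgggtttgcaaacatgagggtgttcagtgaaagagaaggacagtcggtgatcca
In Cyp1a2 the capital TGACCT is AGGTCA on the other strand, 77 bases before the start, and TATAAA began 39 bases before it. The stretches of the other 2 genes held neither motif in these 250 bases, and none of the 3 held GCGTG, the core letters bound by AhR. AGGTCA occurred on either strand in 12 of the 35 P450 promoters and in 13.7% of all 27457 promoters of this length, TATAAA in 10 and 13.1%, and GCGTG in 6 and 27.2%. A match describes letters and does not show a bound site.

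Most arrays had the markers of their labelled tissue, and 2 did not. On the arrays used, the median of hepatocyte markers was 14.66 to 14.82 in the liver, that of proximal tubule markers 12.53 to 13.31 in the kidney, and that of cardiac muscle markers 14.27 to 14.49 in the heart. Both arrays left out belonged to rats given D5W then sorafenib at 24 h. On the array labelled liver (replicate 1) the liver genes Cyp2c7 and Cyp3a2 read 6.00 and 4.46 while Cyp4a8 read 13.27. On the array labelled kidney (replicate 4) Cyp2c7 and Cyp3a2 read 14.20 and 13.42. That group therefore had 3 arrays in each of these tissues. The 3' minus 5' difference of the actin control probes was 0.64 to 0.76 on the remaining 3 liver arrays, against 0.75 to 0.96 in the other 7 liver groups at 24 h. The median over probe sets was 6.74 to 6.78 on these 3 liver arrays, against 6.69 to 6.71 after D5W then F68 at 24 h. It was 6.71 to 6.75 after oxaliplatin then sorafenib at 24 h. The paper reports shifted intensity distributions and raised probe-level error for every replicate of this liver group. It proposes that the treatment may be the source more than a bias, and asks for further checks. Some kidney and heart arrays carried hepatocyte transcripts: the hepatocyte-marker median lay over 1 log2 above its tissue's median on 4 kidney and 10 heart arrays. The highest was replicate 2 of the D5W then sorafenib kidneys at 24 h, at 10.23 against a kidney median of 6.48. It is 1 of the 3 arrays of that group. A further 2 kidney arrays stood apart and were kept: replicate 1 of the oxaliplatin then sunitinib rats at 1 h had a median over probe sets of 7.81, the next highest being 7.40, and replicate 1 of the D5W then sorafenib rats at 1 h had a cardiac-marker median of 8.79, the next highest being 5.90. Without both, the kidney comparisons of each time had the same P450 genes called, except that Cyp2j3 at 1 h (0.38) and Cyp2t1 at 24 h (0.17) were added for oxaliplatin against D5W. At the edge of the filter, kidney Cyp2c7 passed on 4 arrays, with a median of 5.06 and a highest value of 10.07, and kidney Cyp2c13 exceeded the level on 3 arrays and did not pass.

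In D5W rats given an oral vehicle, P450 transcripts were concentrated in the liver, with a smaller set in the kidney and few in the heart. These levels are a description with no test between tissues, and since probes differ in brightness they rank no gene against another. Kidney arrays also lay on a higher scale. The median over probe sets was 7.32 to 7.81 on the kidney arrays used, 6.66 to 6.78 in the liver and 6.63 to 6.69 in the heart. The same log2 level, the filter level of 6 included, thus stands lower among kidney genes. All values are log2 RMA levels, mean ± SD over 24 arrays. Of the 39 genes that passed anywhere, 17 passed in all 3 tissues and 11 in the liver alone, among them Cyp3a2, Cyp3a9, Cyp3a18, Cyp2a1, Cyp2a2 and Cyp2c12. Cyp2c11, the main male-specific steroid hydroxylase, read 14.50 ± 0.09 in the liver, 10.55 ± 1.00 in the kidney and 5.75 ± 0.30 in the heart. Cyp2e1, which oxidises ethanol and small solvents, read 14.35 ± 0.12, 13.10 ± 0.28 and 6.99 ± 0.38 in the same order. Cyp1a2, which demethylates caffeine, read 13.40 ± 0.25 in the liver against 6.68 ± 0.24 and 6.37 ± 0.21. Among all genes of the tissue, its level stood at or above 24.4% in the kidney and 30% in the heart, the reverse order. The arrays of the 3 tissues did not overlap for Cyp2c11 or Cyp2e1.

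Other members had the kidney at or above the liver. Cyp2c23, the arachidonic acid epoxygenase of rat kidney, read 14.06 ± 0.07 in the kidney and 14.02 ± 0.14 in the liver, which differ by less than their spread. Cyp4a8, a fatty acid hydroxylase, read 13.33 ± 0.10 in the kidney and 7.97 ± 0.81 in the liver, and no array of either tissue overlapped. Cyp1a1 read 8.11 ± 0.61 in the kidney, 6.49 ± 0.29 in the liver and 5.32 ± 0.24 in the heart, where it did not pass the filter. Genes that read higher in the heart than in the liver included Cyp4b1, at 9.18 ± 0.23 against 8.79 ± 0.16 in the liver, and Cyp1b1, at 7.80 ± 0.30 against 5.91 ± 0.13. Cyp4b1 oxidises furans and fatty acids, and Cyp1b1 oxidises oestrogens and aromatic hydrocarbons outside the liver.

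**Figure D1:**
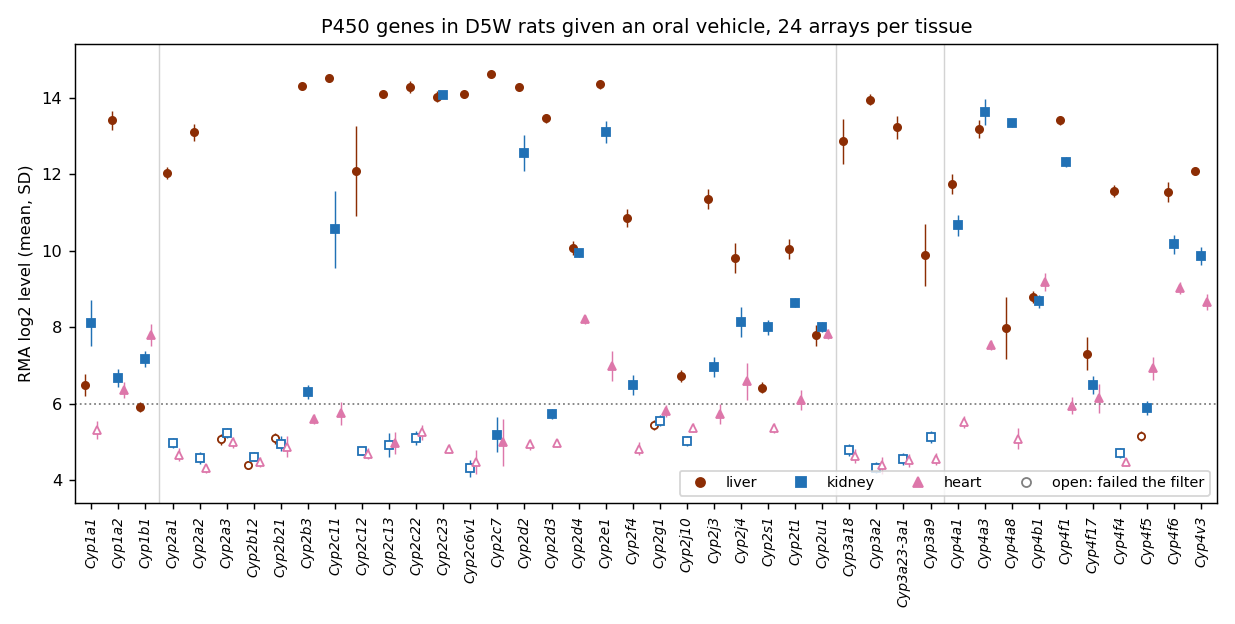
Mean log2 RMA level of the 42 P450 genes (horizontal axis, by name within family) in liver, kidney and heart of D5W rats given water or F68; bars are the SD over 24 arrays, the dotted line is the level of 6 used in the filter, and open symbols did not pass it. Most genes read highest in the liver, with Cyp4a8 and Cyp1a1 among those highest in the kidney and Cyp1b1 and Cyp4b1 among those highest in the heart.

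The pooled SD within groups had a median of 0.19 over the 37 liver members against 0.14 over all genes tested, of 0.23 against 0.13 in the kidney, and of 0.22 against 0.11 in the heart. In the liver 6 of 37 lay above the level that 95% of all genes stayed under, as did 6 of 26 in the kidney and 7 of 20 in the heart. Heart Cyp2c7, Cyp2c13 and Cyp2c11 and kidney Cyp2c7 are among these. They exceeded the filter level on only 9, 4, 13 and 4 arrays respectively. Passing on so few arrays in part fixed their wide spread, so the kidney and heart counts are not a trait of the P450 genes alone. The widest liver gene was Cyp2c12, known as a female-specific form, with a pooled SD of 0.91 and a range of 9.36 to 13.57 over the male rats. Near-identical Cyp2c genes can share probes, so that value may hold more than 1 transcript. Cyp3a9 ranged from 7.93 to 11.71 and Cyp4a8 from 6.19 to 9.76 in the liver. Cyp2c7 and Cyp2b3, by contrast, had a pooled SD of 0.06 there.

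The kidney had its own variable members. Cyp2c11 ranged from 7.0 to 12.48 with a pooled SD of 1.13, and Cyp1a1 from 6.95 to 11.35 with a pooled SD of 0.78. Single kidney groups show the spread of Cyp1a1, with 7.18, 8.72, 8.84 and 11.35 in the D5W then sorafenib rats at 1 h and 7.95, 8.32, 10.36 and 10.67 in the D5W then sunitinib rats at 24 h. High and low rats thus shared a group, and the mean of such a group says little about any 1 rat. Without both kidney arrays that stood apart, the median pooled SD was 0.21 over members against 0.12 over all genes, with 8 of 26 above the 95% level, 1.10 for Cyp2c11 and 0.79 for Cyp1a1. After subtracting group means, kidney Cyp2c11 and Cyp1a1 had correlations of -0.05 and -0.08 with the median of the hepatocyte markers over the 95 arrays. For kidney Cyp2c7 that correlation was 0.91, and for heart Cyp2c7, Cyp2c13 and Cyp2c11 it was 0.93, 0.92 and 0.88 over 96 arrays. Kidney Cyp2c7 exceeded the filter level on 4 arrays, those with liver RNA, and the heart genes on 9, 4 and 13 arrays. Most of these heart arrays were also high in hepatocyte markers. These genes thus entered as members largely through such arrays, and the filter in part fixed these high correlations and the wide spread of these genes. These are descriptions over arrays that share a normalization, and in bulk tissue a change in the number of cells of a type and in RNA per cell cannot be told apart.

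**Figure D2:**
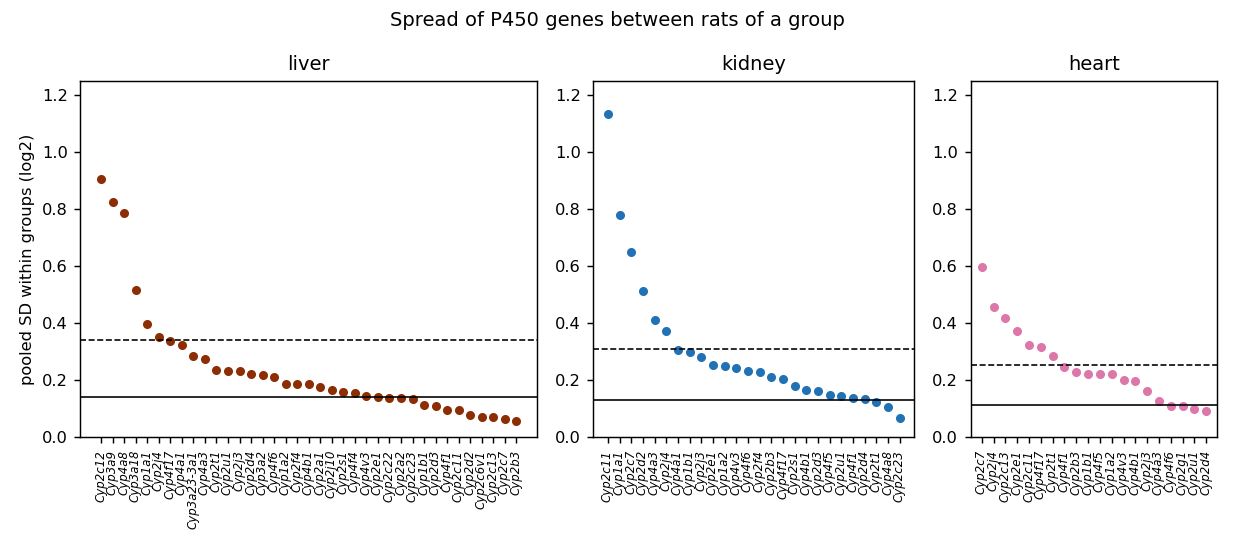
Pooled SD within groups on the log2 scale (vertical axis) of each P450 gene in liver, kidney and heart, beside the median and the 95th percentile over all genes tested in the tissue. Cyp2c12, Cyp3a9 and Cyp4a8 lead in the liver, Cyp2c11 and Cyp1a1 in the kidney and Cyp2c7 in the heart. Heart Cyp2c7 exceeded the filter level on only 9 of 96 arrays, which in part fixed its spread.

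Oxaliplatin was compared with D5W in rats given an oral vehicle to show its own effect on each tissue. In the liver it moved few P450 genes at any of the 3 times. At 1 h Cyp4b1 fell, at 6 h Cyp2c7 fell by a small step, and at 24 h Cyp1a2, Cyp4b1 and Cyp4f4 rose. The moderated F test of limma over the 3 times (Benjamini-Hochberg, adjusted p under 0.05) called 6 of 37 P450 genes, against 19.7% of all genes: Cyp1a2, Cyp2c6v1, Cyp2c7, Cyp4a8, Cyp4b1 and Cyp4f4. None of the Cyp3a genes was among them.

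At 1 h the liver level of Cyp4b1 was 8.58, 8.74, 8.94 and 9.0 after D5W then F68, and 8.62, 8.71, 8.81 and 9.10 after D5W then water. After oxaliplatin it was 8.02, 8.05, 8.15 and 8.31 with F68 and 8.09, 8.25, 8.31 and 8.34 with water. All 8 oxaliplatin rats were below all 8 D5W rats, on both dosing days. The log2 difference was -0.62 ± 0.09 (SE), 1.54-fold lower, with an adjusted p of 9.3e-07 by limma, and it was the only P450 gene of 37 called, against 3.46% of all genes. Over the 37 members the median log2 difference was -0.01, as over all genes. Endothelial transcripts moved the same way at that time: of 8 endothelial markers 4 fell and 1 rose, with a median of -0.43. The log2 of their summed level was 12.36 to 12.51 over the D5W rats and 11.70 to 12.08 over the oxaliplatin rats, and their part in the Cyp4b1 result was not tested. At 6 h Cyp4b1 no longer differed past the threshold, at -0.03 ± 0.09 (adjusted p 0.89).

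At 6 h Cyp2c7, a constitutive retinoid and drug hydroxylase, was the single P450 gene called, at -0.12 ± 0.03 (limma, adjusted p 0.016), against 10.4% of all genes, and the call was lost without replicate 3 of the oxaliplatin then F68 rats (range on leaving out an array -0.14 to -0.09). At 24 h 3 of 37 were called, all higher, against 6.42% of all genes, and the median difference was 0.06 over members and -0.02 over all genes. Cyp1a2 read 12.96, 13.02, 13.13 and 13.49 after D5W then F68 and 13.18, 13.19, 13.45 and 13.47 after D5W then water. After oxaliplatin it read 13.52, 13.55, 13.57 and 13.77 with F68 and 13.56, 13.62, 13.70 and 13.86 with water. All 8 oxaliplatin rats were above all 8 D5W rats, by 0.41 ± 0.09 or 1.33-fold (adjusted p 0.0037). No such difference was called for its family members, with Cyp1a1 at 0.10 ± 0.19 and Cyp1b1 at 0.06 ± 0.06. Cyp4b1, lower at 1 h, rose by 0.31 ± 0.09 (adjusted p 0.03), a call lost on leaving out any 1 of 6 arrays (range 0.26 to 0.36), and Cyp4f4, a leukotriene and fatty acid hydroxylase, rose by 0.29 ± 0.08 (adjusted p 0.014), a call lost without replicate 4 of the oxaliplatin then F68 rats (lowest value on leaving out an array 0.25).

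The regulators around these genes were read from lists of pathway genes. At 24 h after oxaliplatin in the liver, 3 of 12 xenobiotic and lipid receptor genes rose and 1 fell: Nr1i3, which encodes CAR, rose by 1.05 ± 0.31 (adjusted p 0.028), Rxra, the partner of many such receptors, by 0.29 ± 0.07, and Ppargc1a, a coactivator of fasting genes, by 0.45 ± 0.14, while Nr3c1, the glucocorticoid receptor, changed by -0.42 ± 0.08. Of 5 AhR pathway genes Ahr itself rose by 0.47 ± 0.15 and Nfe2l2, the antioxidant regulator, changed by -0.46 ± 0.14. Macrophage markers were lower in the same rats, 7 of 9 falling, as were 4 of 4 red-cell genes. The log2 of the summed macrophage level was 14.02 to 14.68 after D5W and 13.46 to 14.05 after oxaliplatin; the summed hepatocyte level was 17.83 to 17.91 over all 4 groups. The part of these cells in the P450 values was not tested.

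**Figure D3:**
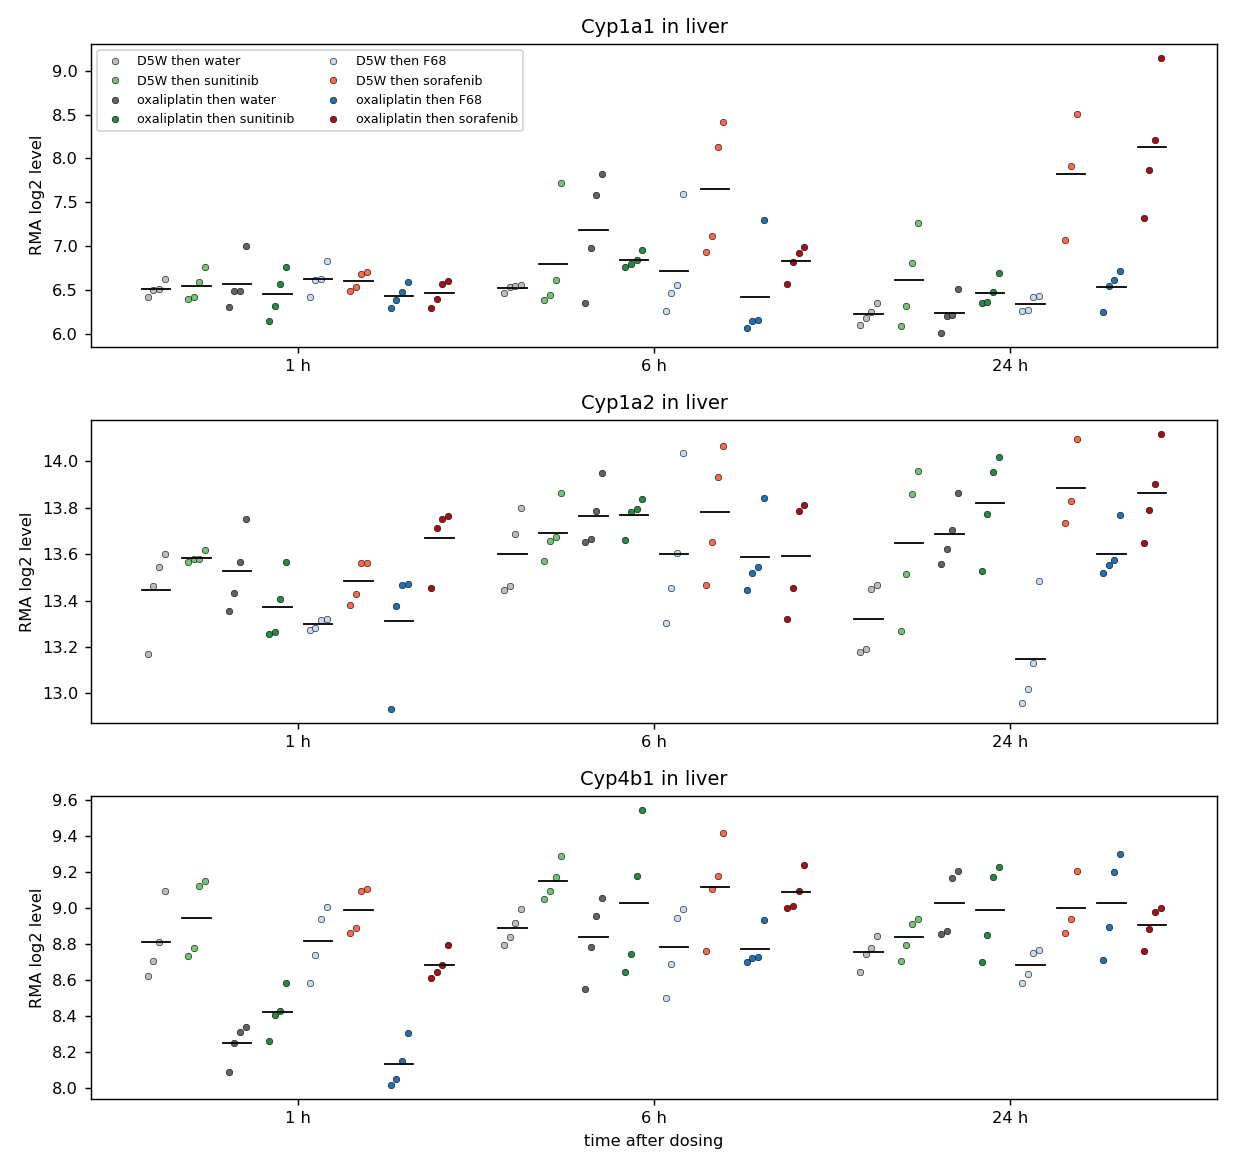
Log2 RMA level of Cyp1a1, Cyp1a2 and Cyp4b1 on every liver array used (points), by treatment and time after dosing, with group means as lines. At 24 h all sorafenib rats lie above their F68 rats for Cyp1a1, and at 1 h all oxaliplatin then vehicle rats lie below the D5W then vehicle rats for Cyp4b1.

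Sorafenib was compared with F68 after each infusion to show the effect of the oral drug with and without oxaliplatin. In the liver Cyp1a1 was 2.79-fold higher at 24 h after D5W and 3.04-fold higher after oxaliplatin, and it was the P450 gene with the largest called change in either. After D5W then F68 it read 6.26, 6.27, 6.42 and 6.43, and after D5W then sorafenib 7.07, 7.91 and 8.50 on the 3 arrays used. After oxaliplatin then F68 it read 6.25, 6.55, 6.62 and 6.72, and after oxaliplatin then sorafenib 7.32, 7.87, 8.21 and 9.15. Every sorafenib rat was above every F68 rat. The log2 differences were 1.48 ± 0.30 (adjusted p 1.3e-05) and 1.60 ± 0.27 (adjusted p 2.1e-04) by limma. The difference between these effects was 0.12 ± 0.40, with a 95% interval of -0.68 to 0.92, so a change of that effect by oxaliplatin was not detectable with these arrays. Cyp1a1 passed the filter on all 95 liver arrays, the lowest reading 6.01, so its presence among the members did not rest on the sorafenib rats.

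At the earlier times the difference was smaller. At 1 h the Cyp1a1 difference after D5W was -0.02 ± 0.27. At 6 h it was 0.93 ± 0.27 after D5W (adjusted p 0.18) and 0.41 ± 0.27 after oxaliplatin (adjusted p 0.58), and 0.67 ± 0.19 over both infusions (adjusted p 0.051), none past the threshold. At 24 h the value over both infusions was 1.54 ± 0.20 (adjusted p 1.6e-09), 1 of 7 genes called of 37 against 64.5% of all genes. The other 6 were Cyp1a2 at 0.50, Cyp2c22 at -0.27, Cyp2f4 at -0.37, Cyp2j3 at -0.37, Cyp4a1 at -0.38 and Cyp4v3 at -0.35, and the Cyp4a1 call was lost on leaving out any 1 of 7 arrays (range -0.56 to -0.24). When the liver arrays were quantile-normalized again, Cyp2f4 was at -0.11 (adjusted p 0.31), Cyp2j3 at -0.12 (adjusted p 0.41) and Cyp4a1 at -0.15 (adjusted p 0.46), and these 3 were not called, while Cyp4v3 was at -0.17 and called (adjusted p 0.044). Sunitinib gave no such call at 24 h: Cyp1a1 read 6.09, 6.31, 6.80 and 7.26 after D5W then sunitinib against 6.10, 6.18, 6.25 and 6.36 with water, and 6.36, 6.36, 6.47 and 6.69 after oxaliplatin then sunitinib against 6.01, 6.20, 6.21 and 6.51 with water. These groups overlapped, with a difference over both infusions of 0.32 ± 0.19 (adjusted p 0.42, interval -0.07 to 0.70), and 0 of 37 members were called by limma (12 at an unadjusted p under 0.05) against 1.3% of all genes. The sorafenib effect exceeded the sunitinib effect by 1.23 ± 0.28 (adjusted p 2.7e-04), the 1 member of 37 called against 48.5% of all genes, where each drug has its own vehicle, dose and dosing day.

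Cyp1a2 rose after D5W and was not called after oxaliplatin. At 24 h it read 13.74, 13.83 and 14.09 after D5W then sorafenib, all above the F68 rats given above, with a difference of 0.74 ± 0.14 or 1.67-fold (adjusted p 6.7e-06). After oxaliplatin then sorafenib it read 13.65, 13.79, 13.90 and 14.12, which overlapped with the oxaliplatin then F68 rats, and the difference was 0.26 ± 0.13 (adjusted p 0.25). The effect after oxaliplatin differed by -0.47 ± 0.19 (adjusted p 0.045), and that call was lost on leaving out any 1 of 9 arrays (range -0.59 to -0.37). Cyp1b1, the other family 1 gene, was at -0.10 ± 0.09 (adjusted p 0.31). Of the 5 AhR pathway genes outside the P450 families none rose after D5W then sorafenib and 2 fell, against 67.3% of all genes called. The 2 were Tiparp, an AhR-induced repressor, at -0.82 ± 0.17 and Nfe2l2 at -0.86 ± 0.21.

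Over the 3 times the F test for sorafenib after D5W called 10 of 37 P450 genes in the liver, against 63.5% of all genes. The D5W then sorafenib rats at 24 h had 10 of 37 called too, 4 higher and 6 lower, against 67.3% of all genes tested. The median log2 difference was -0.10 over members and -0.24 over all genes. Besides Cyp1a1 and Cyp1a2, Cyp4b1 (0.32 ± 0.14, adjusted p 0.04) and Cyp2c6v1, a phenobarbital-responsive hydroxylase (0.15 ± 0.06, adjusted p 0.017), rose. The genes that fell were Cyp2f4, an oxidiser of naphthalene, Cyp4v3, a fatty acid hydroxylase, Cyp4f17, Cyp2j3, an epoxygenase, and Cyp2d4 and Cyp2c22. Cyp2f4 read 10.02, 10.32 and 10.54 against 10.77, 10.77, 11.11 and 11.19 in the F68 rats, a difference of -0.67 ± 0.14 (adjusted p 3.2e-05). Cyp4v3 read 11.43, 11.58 and 11.71 against 12.10, 12.14, 12.21 and 12.30, a difference of -0.61 ± 0.11 (adjusted p 2.1e-06). In both genes every sorafenib rat was below every F68 rat. The other 4 lay between -0.60 and -0.35. Calls lost on leaving out single arrays were those of Cyp2c6v1 (range 0.07 to 0.19, without replicate 1 of F68 or replicate 4 of sorafenib), Cyp2d4 (-0.51 to -0.34, without replicate 2 of F68), Cyp4b1 (0.22 to 0.39, without any 1 of 4) and Cyp4f17 (-0.69 to -0.47, without any 1 of 3). Cyp2c11, Cyp3a2 and Cyp2e1, of the main male and constitutive forms, were at -0.03 ± 0.07, 0.08 ± 0.16 and 0.07 ± 0.11 and were not called. Nor were Cyp2c23 at 0.10 ± 0.10, Cyp3a23-3a1 at 0.02 ± 0.21, Cyp3a9 at -0.37 ± 0.61 and Cyp4a1 at -0.42 ± 0.24.

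After oxaliplatin the same oral comparison called 1 of 37, Cyp1a1, against 1.38% of all genes. Cyp2f4 read 10.36, 10.67, 10.68 and 10.90 with sorafenib and 10.42, 10.54, 10.90 and 11.02 with F68, and Cyp4v3 read 11.92, 12.18, 12.22 and 12.28 with sorafenib and 12.19, 12.22, 12.26 and 12.31 with F68. Both pairs of groups overlapped, with differences of -0.07 ± 0.13 and -0.09 ± 0.10. The effect itself differed between infusions for 4 members, Cyp1a2, Cyp2f4 (0.60 ± 0.19, adjusted p 0.011), Cyp4f17 (0.83 ± 0.34, adjusted p 0.047) and Cyp4v3 (0.52 ± 0.15, adjusted p 0.0056), against 38.2% of all genes. The Cyp4f17 call was lost on leaving out any 1 of 11 arrays (range 0.71 to 0.99) and that of Cyp2f4 without replicate 2 of the D5W then sorafenib rats (lowest value on leaving out an array 0.46). When the liver arrays were quantile-normalized again, the Cyp2f4 change was 0.31 (adjusted p 0.21) and the Cyp4v3 change 0.30 (adjusted p 0.12), neither called, and with the most variable probe set the Cyp4v3 change was 0.70 (adjusted p 0.11). The F test of that change over the 3 times called 0 of 37 (lowest adjusted p 0.0501), against 22.2% of all genes.

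The lower values after D5W then sorafenib depended in part on scaling. When the liver arrays were quantile-normalized again, the median over all genes moved from -0.24 to -0.05, and of the genes called 47% were higher, against 28.4% as deposited. Cyp1a1 was then at 1.66, Cyp1a2 at 0.78, Cyp4b1 at 0.69 and Cyp2c6v1 at 0.19, with Cyp2a1 added at 0.32. Cyp4v3, Cyp4f17 and Cyp2c22 stayed called at -0.33, -0.67 and -0.34 and Cyp1b1 was added at -0.32, while Cyp2f4 (-0.27), Cyp2j3 (-0.21) and Cyp2d4 (-0.05) were not. Relative to the all-gene median of the deposited values, Cyp2f4 was at -0.42 and Cyp4v3 at -0.37.

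**Figure D4:**
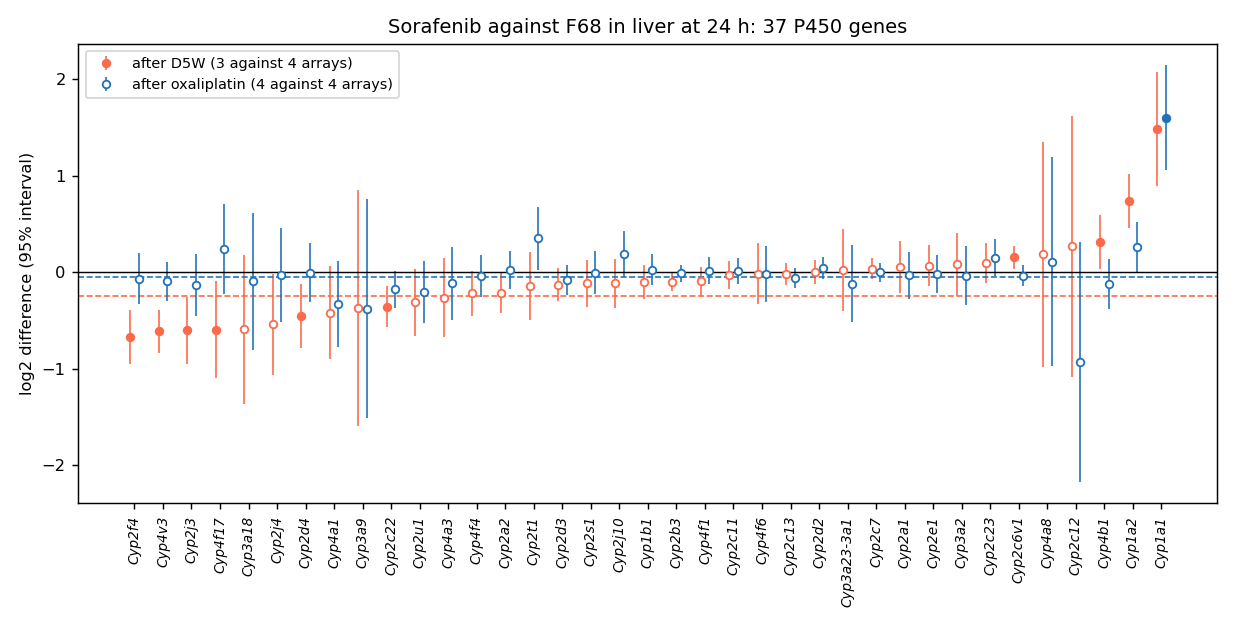
Log2 difference of sorafenib against F68 in the liver at 24 h for the 37 P450 genes, after D5W and after oxaliplatin; points are limma estimates and bars 95% intervals, and the horizontal line is 0. Cyp1a1 stands highest after both infusions, at 1.48 and 1.60, while the lower values of Cyp2f4 and Cyp4v3 appear after D5W and sit near 0 after oxaliplatin.

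Lists of genes that serve or regulate the P450 enzymes were read in the D5W then sorafenib livers at 24 h. Of 11 genes of haem synthesis and breakdown, which supply the P450 cofactor, 9 fell and none rose, with a median of -0.51. Alas1, the rate-limiting step, was at -0.86 ± 0.28 (adjusted p 0.0053), Cpox at -0.70 ± 0.11 and Fech, which inserts the iron, at -0.61 ± 0.12. Of 5 electron donors 1 fell, Cyb5b at -0.41 ± 0.14. Among 10 genes of the male growth hormone axis 2 rose and 5 fell, with the growth hormone receptor Ghr at -0.58 ± 0.09 and the liver factor Onecut1 at -2.33 ± 0.71. Among 12 receptors 3 rose and 4 fell, with Rxra at 0.80 ± 0.10 and Nr1h3, the oxysterol receptor LXR alpha, at -1.0 ± 0.11. Of 10 PPAR alpha targets outside the P450 genes 3 fell. Against the background of 67.3% called, the haem list had 9 of 11 and the growth hormone list 7 of 10, and after oxaliplatin none of these 5 lists had a member called.

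Cell type markers moved with the same arrays. All 9 macrophage markers and 6 of 8 endothelial markers fell, while 1 of 9 hepatocyte markers rose and the other 8 were not called. The log2 of the summed macrophage level was 13.30 to 13.57 against 14.02 to 14.68 with F68, and that of the endothelial markers 11.67 to 11.69 against 12.33 to 12.40. Hepatocyte markers summed to 17.83 to 17.90 against 17.83 to 17.88. After oxaliplatin, where Cyp1a1 rose as well, the summed macrophage level was 13.39 to 13.65 with sorafenib and 13.46 to 13.76 with F68, so those groups overlapped. The endothelial level was 11.46 to 11.91 there against 12.14 to 12.27. The part of these cells in the P450 differences was not tested.

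Outside 24 h sorafenib gave few calls in the liver. After D5W 0 of 37 were called by limma at 1 h and 0 at 6 h, with 1 and 4 at an unadjusted p under 0.05, against 0.0689% and 0.0344% of all genes. After oxaliplatin at 1 h Cyp4b1 was higher with sorafenib, at 8.61, 8.64, 8.69 and 8.79, than with F68 alone, at 8.02 to 8.31 as above, by 0.55 ± 0.13 (adjusted p 0.038), against 0.189% of all genes. All 4 sorafenib rats were above all 4 F68 rats, but the call was lost on leaving out any 1 of 8 arrays (range 0.51 to 0.61). After D5W at 1 h the sorafenib rats read 8.86, 8.89, 9.10 and 9.11 and overlapped with their F68 rats (0.17 ± 0.13, adjusted p 0.63), and the change between infusions was not called (0.38 ± 0.18). Over both infusions Cyp4b1 was the 1 member of 37 called at 1 h (0.36 ± 0.09, adjusted p 0.02) and at 6 h (0.32 ± 0.09, adjusted p 0.044), against 2.92% and 1.75% of all genes. Quantile-normalizing again ended the 1 h calls of Cyp4b1 after oxaliplatin (0.50, adjusted p 0.17) and over both infusions (0.31, adjusted p 0.096), and testing without the filter ended that at 6 h (adjusted p 0.051). The pooled 1 h call was also lost without replicate 1 of the D5W then F68 rats, and the 6 h call on leaving out any 1 of 12 arrays (range 0.27 to 0.38). Sunitinib moved no P450 gene past the threshold at any time, with 0 of 37 in each of 3 comparisons after D5W by limma and 1, 2 and 7 at an unadjusted p under 0.05 at 1, 6 and 24 h. The background was 0%, 0% and 0.964% of all genes. At 24 h the 95% interval of the sunitinib difference lay within 1 log2 of 0 for 34 of 37 genes.

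Time and vehicle also moved some liver members. In D5W rats given a vehicle, Cyp2a2 changed by -0.22 from 1 to 6 h and by 0.32 from 6 to 24 h, and Cyp1a2 by -0.36 from 6 to 24 h (limma, adjusted p 0.023, 0.0012 and 0.0071). Of 37 genes 2 were called between 1 and 6 h, the other being Cyp4f6 at -0.33, against 11.3% of all genes, and 3 between 6 and 24 h, the other being Cyp4f1 at 0.16, against 7.34%. Between 1 and 24 h 0 of 37 were called (6 at an unadjusted p under 0.05), against 2.03%. Arrays of 24 h carry another array code than those of 1 and 6 h, so time and array code cannot be told apart there. F68 against water at 24 h called Cyp1b1 at 0.20 and Cyp2t1 at -0.42, 2 of 37 against 2.52% of all genes, and 0 at 1 and 6 h (4 and 4 at an unadjusted p under 0.05), against 0.852% and 2.29%. Both 24 h calls were lost when the arrays were quantile-normalized again (Cyp1b1 0.17, adjusted p 0.066; Cyp2t1 -0.37, adjusted p 0.052) and on leaving out any 1 of 11 and of 9 arrays. Over the 3 times its F test called Cyp1b1, 1 of 37 against 6.7%.

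In the kidney oxaliplatin moved members of family 4 and Cyp2t1. The F test over the 3 times called 5 of 26 P450 genes, Cyp2t1, Cyp4a1, Cyp4a8, Cyp4f1 and Cyp4f6, against 31.4% of all genes. At 24 h Cyp4a1 and Cyp4a8, both fatty acid omega-hydroxylases, were the 2 called, both higher, against 7.8% of all genes. Cyp4a1 read 10.64, 10.66, 10.81 and 11.05 after D5W then F68 and 10.39, 10.60, 10.85 and 10.91 after D5W then water. After oxaliplatin it read 11.02, 11.23, 11.51 and 11.68 with F68 and 11.12, 11.22, 11.30 and 11.36 with water. The lowest oxaliplatin rat lay just below the highest D5W rat, and the difference was 0.57 ± 0.15 or 1.48-fold (limma, adjusted p 0.0091). At 1 and 6 h it was 0.09 ± 0.15 and -0.04 ± 0.15.

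Cyp4a8 moved less but with less spread. It read 13.12, 13.15, 13.19 and 13.37 after D5W then F68 and 13.28, 13.29, 13.34 and 13.37 after D5W then water, and after oxaliplatin 13.32, 13.43, 13.46 and 13.52 with F68 and 13.48, 13.49, 13.54 and 13.58 with water. The groups overlapped at their edge, and the difference was 0.21 ± 0.05 or 1.16-fold (adjusted p 0.0044). With the more variable of its probe sets in place of the brighter one it was 0.24 and no longer called (adjusted p 0.074). Cyp4a3, the other Cyp4a gene measured, was at -0.02 ± 0.20, with an interval of -0.42 to 0.38, and was not called. Within groups Cyp4a1 and Cyp4a3 ran opposite ways over the kidney arrays, with a correlation of -0.55, and Cyp4a1 and Cyp4a8 together, with 0.51. Of 11 PPAR alpha targets outside the P450 genes 1 rose at 24 h, Slc25a20, the carnitine carrier of mitochondria, by 0.28 ± 0.05. At 6 h 3 of the 11 rose, Acot1, Acot2 and Cpt2, by 0.32, 0.20 and 0.23, against 20.6% of all genes called at that time. Against the 7.8% of all genes called at 24 h, 1 of 5 electron donors rose, Por, which serves all microsomal P450 enzymes, by 0.21 ± 0.07, and 2 of 11 genes of haem synthesis and breakdown rose, Alad and Ppox, by 0.21 and 0.27, with none lower in either list.

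At the earlier times other kidney members were lower after oxaliplatin. At 1 h Cyp4f6 read 9.99, 10.01, 10.21 and 10.47 after D5W then F68 and 10.18, 10.45, 10.45 and 10.50 after D5W then water, and after oxaliplatin 9.62, 9.80, 10.07 and 10.16 with F68 and 9.64, 9.66, 10.11 and 10.27 with water. The groups overlapped, and the difference was -0.37 ± 0.11 (adjusted p 0.026), a call lost on leaving out any 1 of 6 arrays (range -0.43 to -0.32). Cyp4f1, also a fatty acid and leukotriene hydroxylase, was at -0.24 ± 0.07 (adjusted p 0.012), lost without replicate 1 of the D5W then F68 or replicate 3 of the oxaliplatin then F68 rats (range -0.28 to -0.20), and these 2 of 26 compare with 9.41% of all genes. Within groups the pair moved together, with a correlation of 0.76 over the kidney arrays, and near-identical Cyp4f genes can share probes. At 6 h Cyp2t1 was the 1 gene called of 26, against 20.6% of all genes. It read 8.27, 8.6, 8.63 and 8.63 after D5W then F68 and 8.57, 8.6, 8.74 and 8.75 after D5W then water. After oxaliplatin it read 8.10, 8.33, 8.36 and 8.44 with F68 and 8.33, 8.34, 8.47 and 8.63 with water. The groups overlapped, and the difference was -0.22 ± 0.06 (adjusted p 0.0055). In the same kidneys Nqo1, an antioxidant enzyme listed with the AhR pathway, rose by 1.63 ± 0.19 at 6 h, and Hmox1, the stress-induced haem oxygenase, by 0.96 ± 0.20 at 1 h and 1.53 ± 0.20 at 6 h, while Cyp1a1 was not called at any time after oxaliplatin.

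**Figure D5:**
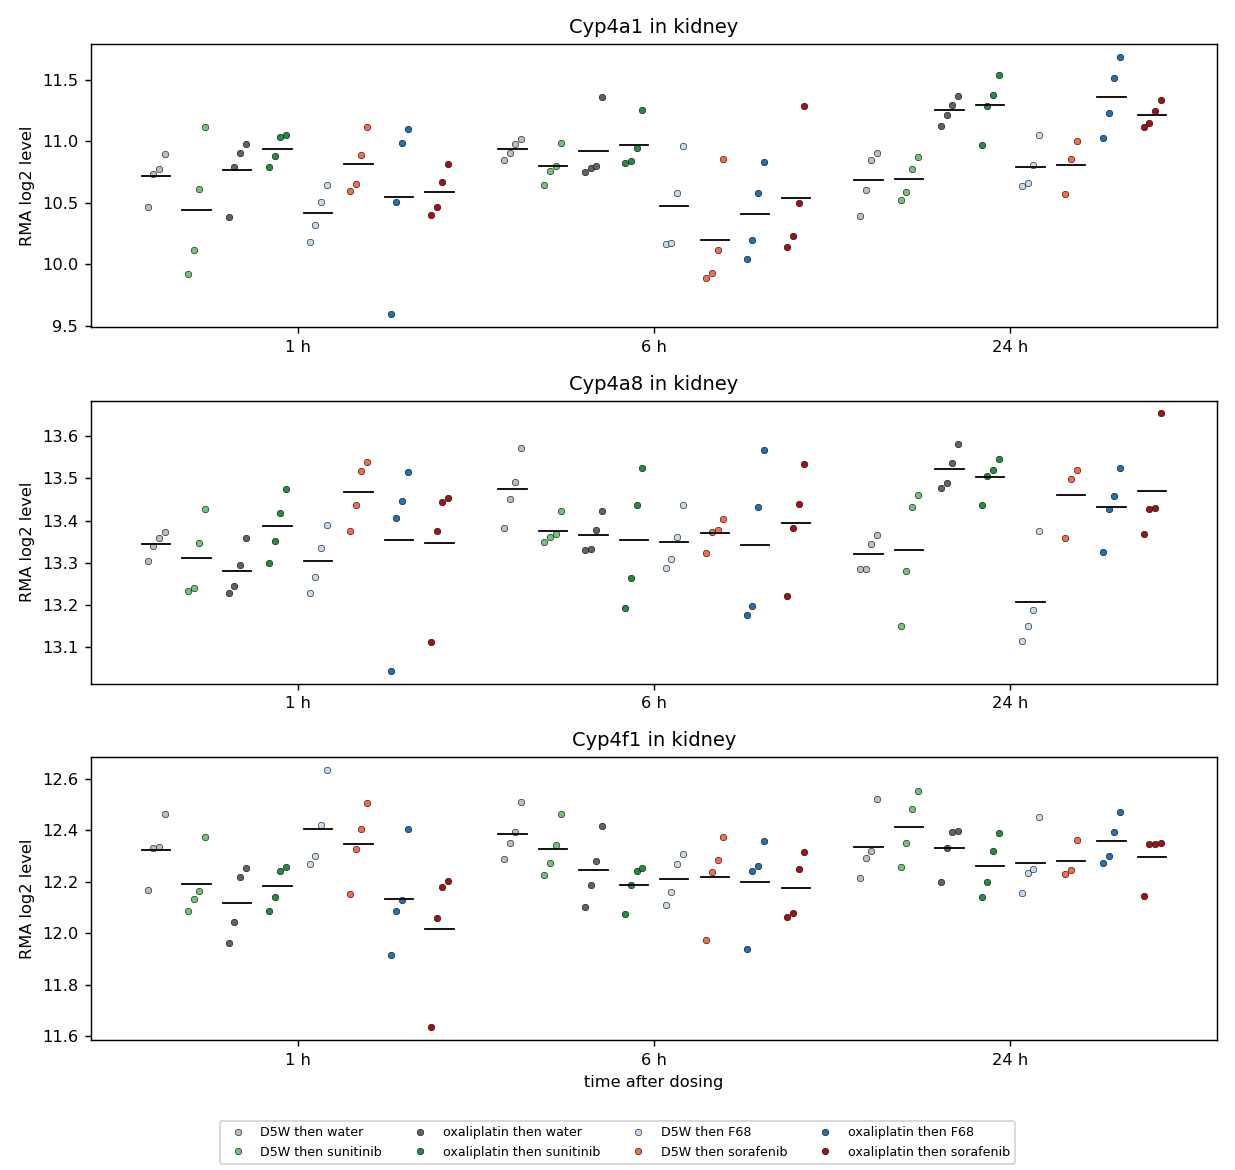
Log2 RMA level of Cyp4a1, Cyp4a8 and Cyp4f1 on every kidney array used (points), by treatment and time after dosing, with group means as lines. At 24 h oxaliplatin rats sit above most D5W rats for Cyp4a1 and Cyp4a8. Cyp4f1 ranges from 11.63 to 12.63 over the kidney arrays.

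No kidney P450 gene passed the threshold with sorafenib after either infusion or with sunitinib after D5W. For sorafenib after D5W limma called 0 of 26 at 1, 6 and 24 h, with 3, 1 and 4 at an unadjusted p under 0.05, against 0%, 0.0731% and 0.203% of all genes. At 24 h, 1 of the 3 sorafenib arrays was the kidney array highest in hepatocyte markers. Without the kidney arrays with liver RNA 0 P450 genes were called there too, against 0.0651% of all genes. After oxaliplatin it called 0 of 26 as well, with 3, 3 and 0, against 0.00812%, 0.544% and 0%. For sunitinib after D5W it called 0 of 26, with 2, 0 and 0, against 0.0244%, 0% and 0%. For Cyp1a1 the kidney difference with sorafenib at 24 h over both infusions was 0.35 ± 0.40, with an interval of -0.44 to 1.14, against 1.54 ± 0.20 in the liver; the difference between tissues was not tested. F68 against water called Cyp1a2 at -0.44 and Cyp2f4 at -0.36 at 1 h, against 18.3% of all genes, and Cyp2s1 at -0.33 and Cyp4a1 at -0.49 at 6 h, against 9.3%. The Cyp2f4 and Cyp4a1 calls were lost on leaving out any 1 of 3 and of 5 arrays (ranges -0.42 to -0.30 and -0.57 to -0.42). Since F68 and water rats differ by dosing day too, vehicle and day cannot be told apart in these values.

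In the heart Cyp4b1 was higher with sorafenib after D5W at 6 and 24 h. At 6 h it read 9.70, 10.04, 10.16 and 10.26 after D5W then sorafenib against 9.22, 9.30, 9.48 and 9.77 with F68, and 9.78, 9.91, 10.19 and 10.23 after oxaliplatin then sorafenib against 9.47, 9.57, 9.65 and 9.81 with F68. The groups overlapped at their edges, and the difference was 0.60 ± 0.14 (limma, adjusted p 3.1e-04) after D5W and 0.40 ± 0.14 (adjusted p 0.056) after oxaliplatin. At 24 h it read 9.43, 9.53, 9.54 and 9.66 against 8.84, 9.01, 9.03 and 9.16 after D5W, with every sorafenib rat higher, a difference of 0.53 ± 0.14 (adjusted p 0.01), and 9.40, 9.41, 9.55 and 9.98 against 9.14, 9.14, 9.33 and 9.73 after oxaliplatin, which overlapped. Over both infusions the differences were 0.50 ± 0.10 at 6 h and 0.39 ± 0.10 at 24 h (adjusted p 2.9e-05 and 0.0041), 2 of 20 and 3 of 20 members called, against 40.2% and 13.5% of all genes. Its correlation with the hepatocyte markers within heart groups was 0.09. The actin 3' minus 5' difference was 0.49 to 0.77 in the D5W then sorafenib hearts at 6 h against 0.20 to 0.33 with F68, and 0.13 to 0.37 against 0.40 to 0.50 at 24 h, and its part in these values was not tested.

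With the oral drugs after D5W, heart differences were small, and Cyp2j3, Cyp2g1 and Cyp2u1 had opposite signs at different times. Sorafenib called 2, 6 and 2 of 20 members at 1, 6 and 24 h, against 12.2%, 41.9% and 7.05% of all genes. Cyp2j3, an epoxygenase of arachidonic acid, was at 0.48 ± 0.11 at 1 h (adjusted p 0.0038) with every sorafenib rat above every F68 rat, and at -0.37 ± 0.11 at 6 h (adjusted p 0.0056), where the groups overlapped and the call was lost without replicate 3 of the D5W then sorafenib rats (range -0.47 to -0.29). Cyp2g1, an olfactory form, was at 0.22 and -0.28 at the same times, and Cyp1a2, Cyp2u1 and Cyp4f6 were at -0.38, -0.18 and -0.23 at 6 h. At 24 h the gene called beside Cyp4b1 was Cyp2d4 at 0.21. Sunitinib called 1, 0 and 4 of 20, against 10%, 0% and 25.4%. The actin 3' minus 5' difference was 0.28 to 0.38 with sunitinib against 0.46 to 0.53 with water at 1 h, and 0.37 to 0.57 against 0.71 to 0.81 at 24 h, and its part in these calls was not tested. Cyp2u1, a fatty acid hydroxylase, was at -0.22 ± 0.07 at 1 h and at 0.31 ± 0.07 at 24 h, and Cyp1b1 was at -0.49 ± 0.16 at 24 h, with Cyp2g1 at 0.23 and Cyp4f6 at 0.26. The Cyp1b1 call was lost without replicate 1 of the D5W then sunitinib or replicate 4 of the D5W then water rats (range -0.58 to -0.35). Calls also lost on leaving out 1 array were those of Cyp2g1 at 1 h (any of 7 arrays, range 0.18 to 0.26), Cyp1a2 (any of 5, -0.49 to -0.28), Cyp2u1 (any of 5, -0.23 to -0.15) and Cyp4f6 (without replicate 1 of the D5W then F68 rats, -0.26 to -0.20) at 6 h and Cyp2d4 at 24 h (any of 6, 0.17 to 0.25) with sorafenib. When quantile-normalized again, Cyp2g1 at 1 h was at 0.16 (adjusted p 0.25) and Cyp1a2 at 6 h at -0.35 (adjusted p 0.056), and with the most variable probe set Cyp2d4 at 24 h was at 0.25 (adjusted p 0.061). With sunitinib the calls lost on leaving out 1 array were Cyp2u1 at 1 h (any of 5, -0.24 to -0.17) and Cyp2g1 (either of 2, 0.19 to 0.26) and Cyp4f6 (without replicate 2 of the D5W then sunitinib rats, 0.21 to 0.33) at 24 h. After oxaliplatin limma called 0 of 20 with either drug at each time, with 5, 5 and 0 at an unadjusted p under 0.05 for sorafenib and 2, 2 and 1 for sunitinib, against 2.15%, 7.57% and 1.72% of all genes for sorafenib and 0%, 0.00884% and 0% for sunitinib.

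Other heart members were called in several comparisons. The F test over the 3 times called 9 of 20 for sorafenib against 53.5% of all genes, 3 for sunitinib against 29.9% and 4 for oxaliplatin against 20.7%. After oxaliplatin at 24 h 6 of 20 were called, against 19.2% of all genes, where the actin 3' minus 5' difference was 0.71 to 0.81 in the D5W then water rats against 0.40 to 0.62 with oxaliplatin then water, and 0.40 to 0.50 against 0.37 to 0.50 with F68. Its part in the calls was not tested. Cyp2t1 (0.52 ± 0.14), Cyp4b1 (0.32 ± 0.10), Cyp4f6 (0.24 ± 0.05) and Cyp2d4 (0.15 ± 0.05) rose, and Cyp2c7 (-0.88 ± 0.29) and Cyp2c11 (-0.48 ± 0.16) fell. The 4 genes of the oxaliplatin F test were Cyp2g1, Cyp2t1, Cyp4b1 and Cyp4f6. That F test did not call Cyp2d4, Cyp2c7 or Cyp2c11 (adjusted p 0.068, 0.086 and 0.12). The calls of Cyp4b1 and Cyp2d4 were lost without replicate 3 of the oxaliplatin then F68 rats (range 0.26 to 0.37) and replicate 4 of the oxaliplatin then water rats (range 0.12 to 0.17) respectively. Cyp2d4 was also not called when quantile-normalized again (0.14, adjusted p 0.055) or with the most variable probe set (0.10, adjusted p 0.26). Cyp2c7 and Cyp2c11 are the liver genes that followed the hepatocyte markers above, and they entered as heart members largely through arrays high in those markers. The count of 6 of 20 includes both. Both lay below the filter level of 6 on most heart arrays, with medians of 4.62 and 5.61 and values over 6 on 9 and 13 of 96 arrays. Of 8 hepatocyte markers in the heart 2 fell in the same comparison, with a median of -0.66, and the log2 of their summed level was 10.30 to 12.40 over the D5W rats and 10.32 to 10.75 over the oxaliplatin rats. Their part in the Cyp2c7 and Cyp2c11 values was not tested, and both calls were lost on leaving out single arrays, any 1 of 3 for Cyp2c7 (range -1.03 to -0.72) and any 1 of 4 for Cyp2c11 (range -0.54 to -0.39), replicate 2 of the D5W then water rats and replicate 2 of the D5W then F68 rats among them for both.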

How the data were processed

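RNA from liver, left kidney and heart of 96 rats was hybridised by the authors to an Affymetrix rat expression array, 1 array per rat and tissue, 288 in all. The authors deposited 1 table of log2 values for 31099 probe sets, made by RMA (background correction, quantile normalization and median polish), and no version is given in the sources used here. Arrays carry no depth; their number limits the precision. The 57 control probe sets were left out, and probe sets were named through the platform annotation, in which 20832 have 1 gene symbol, 436 several and 9831 none. All 42 P450 symbols matched RefSeq.

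Groups came from the sample labels. Replicates are separate rats, numbered here only as names. A model with 24 group means per tissue was fitted with limma 3.58.1 in R 4.3.3 over all genes that exceeded log2 6 on at least 4 arrays, with Benjamini-Hochberg adjustment within a comparison, a call at an adjusted p under 0.05, and a moderated F test over the 3 times. Fold changes are on the RMA scale. Tests were made within a tissue. The script was tested on simulated data. The members, the lists of pathway and marker genes and the tests were chosen with earlier results of these data known, and the comparisons over both infusions and of sorafenib with sunitinib were added after seeing the values. Members were named where called, up to 10 per comparison and direction by the size of the difference, with reference members (the family 1 genes, Cyp2c11, Cyp2c23, Cyp2e1, Cyp3a and Cyp4a1) given in the liver comparison of sorafenib with F68. Within-group correlations used each array's deviation from its group mean. Alternatives were no filter, a second quantile normalization within the tissue, the most variable probe set in place of the brightest, leaving out each array, keeping both left-out arrays as labelled, and leaving out the 4 kidney arrays with liver RNA. Leaving out both kidney arrays that stood apart by median or cardiac markers was added after seeing the data. Sequences are from RefSeq, build GRCr8; the arrays are read by gene symbol, not by position.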

Additional observations from a re-analysis of the deposited data

Results flagged for a closer look

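The sorafenib effect in the liver at 24 h differed between infusions by limma's test of the difference for 4 of 37 P450 genes, against 38.2% of all genes. The differences were -0.47 for Cyp1a2, 0.60 for Cyp2f4, 0.83 for Cyp4f17 and 0.52 for Cyp4v3 on the log2 scale, oxaliplatin minus D5W. The F test of that change over the 3 times called 0 of 37. When quantile-normalized again, the Cyp2f4 and Cyp4v3 differences were 0.31 and 0.30 (adjusted p 0.21 and 0.12) and no longer called. As given above, the calls of Cyp1a2, Cyp2f4 and Cyp4f17 were also lost on leaving out single arrays. In the heart the same difference at 6 h was 0.36 for Cyp2u1, 0.91 for Cyp4f17 and 0.40 for Cyp4f6, 3 of 20 members against 17.1% of all genes. The sunitinib effect in the heart at 24 h differed by 0.63 for Cyp1b1, -0.34 for Cyp2u1 and -0.40 for Cyp4f6, 3 of 20 against 14.4%. Of these heart calls, Cyp4f17 was lost on leaving out any 1 of 5 arrays (range 0.72 to 1.08), Cyp1b1 any 1 of 11 (range 0.49 to 0.73) and Cyp2u1 with sunitinib either of 2 (range -0.40 to -0.27). Each of these rests on 4 arrays per group, with 3 for the D5W then sorafenib livers.

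Both arrays left out of the comparisons carried P450 levels of another tissue than their label: Cyp4a8 read 13.27 on the array labelled liver and Cyp1a2 read 14.23 on the array labelled kidney, where kidney vehicle arrays of D5W rats read 6.68 ± 0.24 (SD, n = 24). Among 52 groups of 4 arrays whose values are printed, 2 had an array far from the others: Cyp2t1 read 8.27 in 1 kidney of the D5W then F68 rats at 6 h, below the others, and Cyp4f6 read 10.18 in 1 kidney of the D5W then water rats at 1 h. Chance flags about 1 in 20 groups.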

How the results depend on the processing

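No paired analysis was possible because the labels give no replicate numbers that tie rats of different groups together. Of 107 counts of called P450 genes under an alternative other than leaving out 1 array, 98 stayed within 1.5 times the reported count. A count of 0 both times was taken as unchanged too, as for sunitinib against water in the kidney. The 98 therefore say little about how stable single calls are. Of 109 called gene values 5 changed sign. Calls were lost for 18 of these values when quantile-normalized again, 7 with the most variable probe set, 3 without the filter, 1 with both left-out arrays kept and 1 without the kidney arrays with liver RNA. With both left-out arrays kept as labelled, the liver count for sorafenib after D5W at 24 h went from 10 to 27 (2 higher, 25 lower), the kidney count from 0 to 9, and the liver F test of the change of the sorafenib effect with oxaliplatin from 0 to 2; Cyp1a2 was then at -1.12 after D5W, at 1.39 for that change and at -0.43 over both infusions, and Cyp2c6v1 at -2.19. These are the values that 1 array of another tissue gives. Quantile-normalizing again gave 1 in place of 0 for that F test and 5 in place of 3 for 24 h against 6 h in vehicle rats in the liver. It moved the share of higher genes among all called from 26.9% to 40.5% for oxaliplatin in the liver at 24 h and from 17.5% to 51.1% for sorafenib after oxaliplatin there. The most variable probe set gave 1 in place of 2 for oxaliplatin in the kidney at 24 h, and put Cyp2d4 at 0.022 for 24 h against 1 h in the heart. For 24 h against 6 h in the kidney, Cyp2f4 was the 1 of 26 members called in the reported analysis, against 7.33% of all genes. With 3 alternatives 0 P450 genes were called there. These were no filter, the most variable probe set and leaving out the kidney arrays with liver RNA, against 5.8%, 6.3% and 6.14% of all genes. The cause of these moves was not tested beyond the construction of each alternative.

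Leaving out each array in turn, the liver counts ran from 0 to 2 for oxaliplatin at 6 h, 1 to 3 at 24 h, 8 to 12 for sorafenib at 24 h, 1 to 2 for F68 against water, 0 to 2 for the change of the sorafenib effect, 0 to 3 for 6 h against 1 h and 2 to 5 for 24 h against 6 h. The kidney counts ran from 0 to 3, 1 to 2 and 2 to 3 for oxaliplatin at 1, 6 and 24 h, 3 to 4 for F68 against water and 0 to 2 for 24 h against 6 h. The heart counts ran from 3 to 5 for oxaliplatin, 2 to 4 for sunitinib, 7 to 10 for sorafenib and 0 to 1 for F68 against water. For F68 against water the reported F test over the 3 times called 0 of 20 in the heart, against 33.2% of all genes. It called 4 of 26 in the kidney, against 24.4%. No left-out array ended the calls of Cyp4b1 at 1 h or Cyp1a2 at 24 h after oxaliplatin in the liver, of Cyp1a1, Cyp1a2, Cyp2c22, Cyp2f4, Cyp2j3 or Cyp4v3 with sorafenib after D5W at 24 h, or of Cyp4a1, Cyp4a8 or Cyp2t1 in the kidney after oxaliplatin. The calls of Cyp2d4, Cyp2c6v1, Cyp4b1 and Cyp4f17 with sorafenib were each lost without at least 1 array.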
